A study of Arabidopsis thaliana with 4 samples.

Results

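Wall-loosening genes of 2 families, the xyloglucan endotransglucosylase/hydrolases (XTH) and the alpha-expansins (EXPA), were examined for phytochrome A binding in Arabidopsis thaliana. The 2 families were chosen with earlier results of these data known. Their members were the protein-coding genes of the nuclear chromosomes whose symbol in the reference gene table is XTH or EXPA followed by a number. This gave 53 of 27444 protein-coding genes, 30 XTH and 23 EXPA. Binding had been measured by chromatin immunoprecipitation and sequencing (ChIP-seq) in seedlings of phyA-GFP phyA201 plants, in which a fusion of phytochrome A (phyA) to green fluorescent protein under the PHYA promoter replaces the product of the mutated PHYA gene. Seedlings grown in darkness to an age of 4 days received far-red light for 3 h before cross-linking, and anti-GFP antibody precipitated the chromatin of 3 biologically distinct samples, called replicates 1, 2 and 3. The series has 1 further sample, the input DNA before precipitation, which was not analysed here. All 3 ChIP samples carry the same transgene and received the same light, so the data hold no contrast with darkness, with plants without GFP or with another genotype.

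The primary wall of a growing plant cell is a network of cellulose microfibrils in a matrix of xyloglucan and pectin. XTH enzymes cut xyloglucan chains and rejoin the ends to other chains, and a few members hydrolyse them instead. Alpha-expansins loosen the contacts between wall polymers at acidic pH without cutting them, and let the wall yield to turgor. Seedlings in darkness elongate their hypocotyl by cell expansion, and phyA is the photoreceptor through which far-red light stops this growth. The files and reference used here hold no sequence and no strand, so the ends of a gene are called its lower and upper end by genome coordinate, and promoters are not told apart from downstream sequence.

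The deposited data are 1 peak list per replicate, with 7084, 7534 and 6037 peaks. Fold enrichment, read as the ChIP signal at the peak summit over the caller's local background, had a median of 4.38, 3.85 and 3.58 in replicates 1, 2 and 3 and was never below 2.95. Reads inside the peaks totalled 11110782, 7702516 and 4951883. The files do not hold total library depths, and levels are compared within a list, by the percentile of a peak's fold enrichment, where 100 is the strongest peak.

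The first question was how many of the wall-loosening genes had phyA-GFP peaks. A gene was counted in a replicate when a peak overlapped its body or the 1000 bp outside either end. Peaks of all 3 replicates were found at 16 of the 53 genes (30.2%), against 18.8% of all protein-coding genes. The XTH family had 10 of 30 (33.3%, 95% Wilson interval 19.2 to 51.2%) and the EXPA family 6 of 23 (26.1%, 12.5 to 46.5%). The XTH genes were XTH4, XTH5, XTH9, XTH18, XTH19, XTH24, XTH25, XTH31, XTH32 and XTH33, and the EXPA genes were EXPA1, EXPA5, EXPA6, EXPA9, EXPA10 and EXPA12. Among all genes with a symbol other than their locus tag the share was 23.6%, and among genes within the members' range of lengths (1114 to 2711 bp) it was 19.1%. No test was made of these shares, since genes are not replicates and several members are neighbours.

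The families kept the same order in each replicate. In replicate 1, 16 XTH genes (53.3%) and 9 EXPA genes (39.1%) had a peak, against 35.3% of all genes. In replicate 2 these were 14 XTH genes (46.7%) and 7 EXPA genes (30.4%), against 35.7%. In replicate 3 they were 13 (43.3%) and 8 (34.8%), against 28.1%. The XTH share was above the share of all genes in the 3 lists, and the EXPA share was above it in replicates 1 and 3 and below it in replicate 2. No peak of any list lay at 12 XTH genes (40.0%) and 12 EXPA genes (52.2%), against 51.9% of all genes. The share counted in all 3 replicates differed by -7.25 percentage points (EXPA minus XTH), with a 95% Newcombe interval of the difference from -29.7 to 17.5. These intervals cover counting error only and treat genes as independent, which neighbouring members that share peaks are not, and the difference between the families was not tested.

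**Figure D1:**
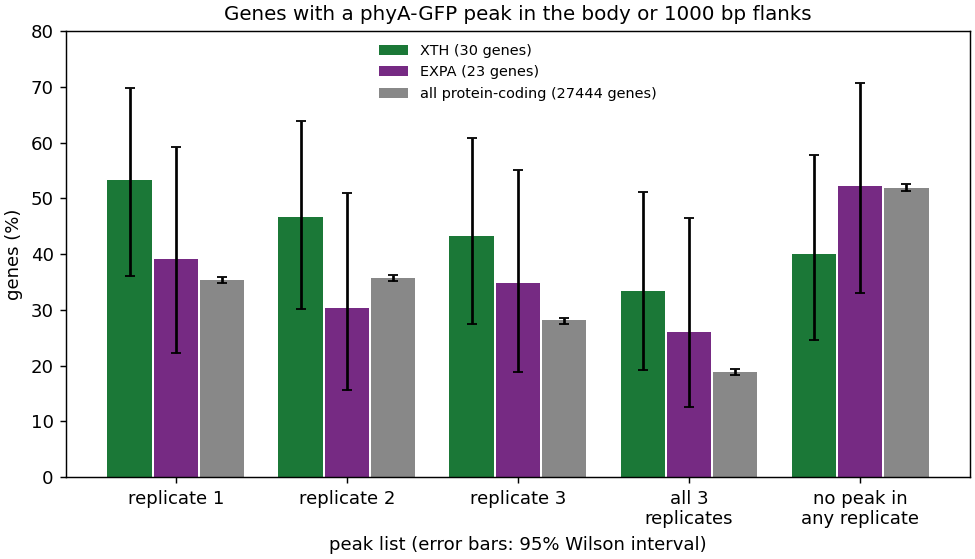
Share of genes (%) with a phyA-GFP peak in the body or 1000 bp flanks, for 30 XTH genes, 23 EXPA genes and 27444 protein-coding genes, in each replicate's list, in all 3 lists and in none; error bars are 95% Wilson intervals. The XTH bars stand above the EXPA bars in every list, with intervals that overlap.

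Among the XTH genes of group I, which are numbered XTH1 to XTH11, 3 of 11 had peaks in all 3 replicates. Over all protein-coding genes this share was 18.8%. The counts in XTH groups I, II and III rest on few genes and were not tested. XTH9 (AT4G03210), which is known for a role in stem elongation, had the highest mean percentile of the family, 69.4. Its strongest peaks had fold enrichments of 4.54, 4.44 and 4.15 (mean 4.38 ± 0.20, SD, n = 3) and held 4315, 3232 and 2955 reads in replicates 1, 2 and 3. The peaks covered the whole gene, on chromosome 4 from 1415617 to 1417444 (TAIR10), and their summits lay 441, 314 and 30 bp outside its lower end. These peaks stood at the percentiles 56.3, 74.1 and 77.7 of their lists, all above the middle. Every peak at XTH9 also reached hemf2 and 2 further genes, and the summit of replicate 1 lay nearer to hemf2. XTH4 (AT2G06850), an enzyme of elongating tissue, lies on chromosome 2 from 2763449 to 2765743 and had 4.61, 3.98 and 3.29 (mean 3.96 ± 0.66). The summits of replicates 1 and 2 lay inside XTH4, at 2764581 and 2765258. That of replicate 3 lay at its lower end, at 2763434, in a peak of 333 reads. The replicate 3 peak ended at 2763752 and did not overlap those of replicates 1 and 2, which began at 2764182 and 2764241. The mean of XTH4 thus joins values of different places. The third gene of the group, XTH5, had 3.94, 4.12 and 2.95, the last being the lowest value of the list. XTH5 nonetheless had the closest summits of the family, at 4477120, 4477147 and 4477133 on chromosome 5, between 30 and 57 bp outside its upper end at 4477090. XTH5 and XTH32 ranked below the members given in full and were singled out after their values were seen.

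Group II, numbered XTH12 to XTH26, had 4 of 13 genes with peaks in all 3 replicates, against 18.8% of all protein-coding genes. Of these 4 genes, 3 lie side by side. XTH24, XTH18 and XTH19 occupy chromosome 4 from 14819192 to 14830224, the 1 run of neighbouring members in which every gene was counted. XTH24 (AT4G30270), also known as MERI5, had 5.09, 3.17 and 3.91 (mean 4.06 ± 0.97). In its strongest peaks the summit of replicate 1 lay 49 bp outside the upper end and those of replicates 2 and 3 lay 948 and 898 bp outside it. XTH18 and XTH19, which are known from the elongating and mature root, shared peaks with each other in every list. At XTH19 the strongest peaks had 4.89, 3.56 and 4.00 (mean 4.15 ± 0.68). Choosing the closest summits instead gave 14830490, 14830263 and 14830308, all just outside the upper end of XTH19 at 14830224 and 227 bp apart at most. XTH18 had nearly equal values of 3.90, 3.82 and 4.00 (mean 3.91 ± 0.09), yet they belong to different places. The summits of replicates 1 and 2 lay inside XTH18, whereas the replicate 3 peak had its summit 3097 bp away, beyond XTH19. XTH genes of the same group are alike in coding sequence, and whether the authors' alignment split reads among them was not tested.

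XTH25 (AT5G57550), the remaining gene of group II, had 5.32, 4.48 and 3.62 (mean 4.47 ± 0.85, SD, n = 3) in peaks of 4153, 4257 and 2027 reads. These peaks overlapped the upper end of XTH25 at 23306440 on chromosome 5, but their summits, at 23307709, 23307514 and 23307199, lay inside the neighbouring gene TCH4. TCH4 is the touch-induced gene also called XTH22, and it occupies 23307006 to 23308680. It falls outside the naming rule because its symbol is TCH4. The signal counted for XTH25 was therefore centred on a gene of the same family with another symbol.

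In group III, of which XTH28 to XTH33 carry the symbol, 3 of 6 genes had peaks in all 3 replicates. This is a count of few genes beside the 18.8% of all protein-coding genes. XTH31 (AT3G44990) encodes an enzyme that can hydrolyse xyloglucan. Its strongest peaks had 5.50, 3.16 and 4.99 (mean 4.55 ± 1.23), the highest mean of the family, and replicate 2 stood at the percentile 11.1 against 83.7 and 94.8 in replicates 1 and 3. The summits of replicates 1 and 3, at 16446224 and 16446228 on chromosome 3, lay 711 and 707 bp outside the lower end of XTH31. Replicate 2 had 2 peaks of equal fold enrichment there, with 1 summit 339 bp outside that end and the other inside the gene, at 16447155. None of the peaks at XTH31 reached the 1000 bp around another protein-coding gene. XTH33 (AT1G10550), whose product is known from the plasma membrane as well as the wall, had 6.27 in replicate 1 and 3.48 and 3.42 in replicates 2 and 3 (mean 4.39 ± 1.63). The peak of replicate 1 held 3906 reads and spanned the whole gene, and those of the other lists held 1069 and 439. At XTH32, a second xyloglucan hydrolase gene, closely placed summits were found at 15474829, 15474881 and 15474868 on chromosome 2, at most 53 bp outside its upper end. The peaks there had 4.73, 3.41 and 3.11.

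EXPA1 (AT1G69530), a gene known for its activity in guard cells, had the highest mean fold enrichment of the 53 genes, although XTH31 stood higher in replicate 3. Its strongest peaks had fold enrichments of 7.68, 6.76 and 4.57 (mean 6.34 ± 1.60, SD, n = 3), at the percentiles 99.1, 99.1 and 89.0, and held 809, 628 and 411 reads. Their summits lay within 75 bp of each other, at 26144580, 26144621 and 26144655 on chromosome 1. These positions are 1042, 1083 and 1117 bp outside the upper end of EXPA1 and lie nearer to the gene AGL94. A second set of peaks lay at the lower end of EXPA1, with 5.52, 4.14 and 4.05 (mean 4.57 ± 0.82). The summits of that set, at 26141664, 26141758 and 26141704, lay within 94 bp of each other and at most 62 bp from the gene. In every list EXPA1 thus had 1 peak at each side, and the set at its lower end reached no other protein-coding gene.

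The other EXPA genes had mean percentiles from 22.3 to 65.6. EXPA6 (AT2G28950) had 4.90, 4.49 and 3.62 (mean 4.34 ± 0.65). It had 2, 3 and 1 peaks in its body or flanks, which together reached both of its ends in each list. The strongest peak of replicate 2, of 429 reads, lay wholly outside the gene, with its summit 1041 bp below the lower end. The summits of the strongest peaks spanned 2021 bp, so the mean joins values of different places. EXPA10 (AT1G26770), which promotes leaf and stalk growth, had 4.33, 4.47 and 3.36 (mean 4.05 ± 0.60). Replicates 1 and 2 each had 3 peaks at EXPA10, below its lower end, on that end and at its upper end. Replicate 3 had the first of these, with its summit 934 bp outside the gene.

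EXPA9 (AT5G02260) had almost the same summit in each list, at 462569, 462570 and 462544 on chromosome 5, between 503 and 529 bp outside its lower end at 463073. Its values were far apart, with 3.87, 5.98 and 3.03 (mean 4.29 ± 1.52) at the percentiles 28.8, 97.1 and 7.5. Position was shared by the replicates at EXPA9 and rank was not. The peaks of EXPA9 reached no other protein-coding gene. EXPA5 (AT3G29030), an expansin gene of brassinosteroid-driven growth, had low values of 3.14, 3.44 and 3.38 (mean 3.32 ± 0.16) with summits inside the gene in its strongest peaks. EXPA12 had 4.06, 3.35 and 3.16 (mean 3.52 ± 0.47). At EXPA12 the peaks of replicates 1 and 3 lay beyond the upper end and that of replicate 2 beyond the lower end, and all 3 summits lay nearer to other genes.

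**Figure D2:**
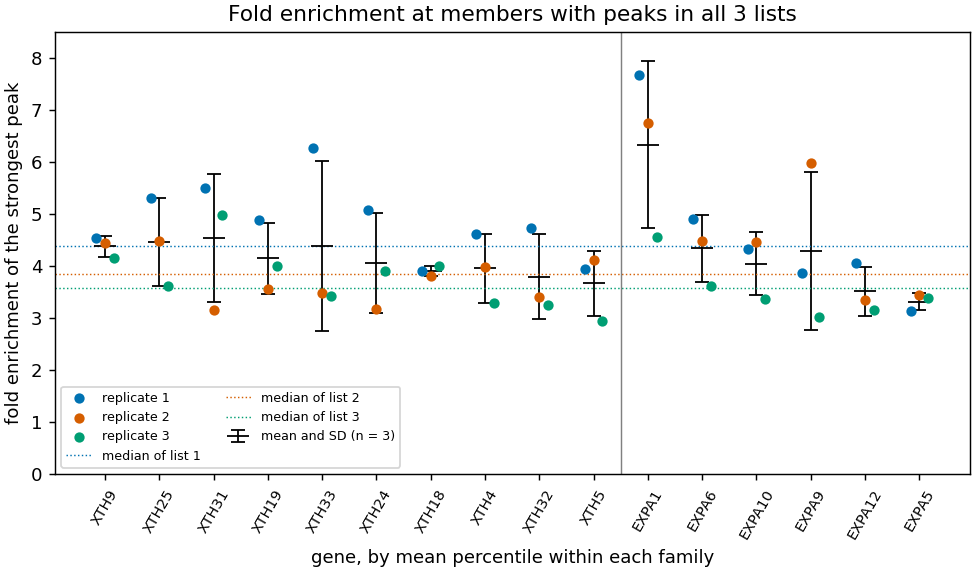
Fold enrichment (linear) of the strongest peak of each replicate at the 10 XTH and 6 EXPA genes with peaks in all 3 lists; points are replicates, bars the mean and SD (n = 3), dotted lines the median of each list (4.38, 3.85 and 3.58). EXPA1 has the highest mean of these genes, 6.34, and the other means lie between 3.32 and 4.55.

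A further 13 genes (24.5%) had peaks in 1 or 2 replicates. Peaks in exactly 2 replicates were found at 16.7% of XTH and 4.35% of EXPA genes, against 13.3% of all protein-coding genes. For exactly 1 replicate the shares were 10% and 17.4%, against 16% of all protein-coding genes. Each family was thus above all genes in 1 of these classes and below them in the other, and no test was made. XTH15, which is known to respond to shade, had 5.40 and 3.92 in replicates 2 and 3, in peaks of 3505 and 2217 reads that ran over the whole gene, and no peak in replicate 1. XTH8 had 6.08 and 4.01 in replicates 1 and 2, with summits that lay nearer to AT1G11560. XTH28, a gene of stamen filament growth, had 4.50 and 4.32 in the same lists, with summits 472 and 2023 bp outside its upper end. XTH7 was found in replicates 1 and 3 at 3.90 and 3.68. The latter peak had its summit 1996 bp outside the upper end of XTH7, nearer to AT4G37810. Another replicate 3 peak at XTH7, with its summit 600 bp outside the lower end, had 3.31. XTH26 was found in replicates 1 and 2 at 3.78 and 3.42. EXPA4 had 4.85 and 4.15 in replicates 2 and 3, where its summits lay 1257 and 1281 bp outside the upper end. XTH14, XTH16, XTH17, EXPA11, EXPA13, EXPA24 and EXPA25 had peaks in 1 replicate, with strongest values between 3.23 and 4.55. EXPA24 and EXPA25 were reached by the same peak of replicate 1, of 679 reads.

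The 12 XTH genes without a peak were XTH1, XTH2, XTH3, XTH6, XTH10, XTH11, XTH12, XTH13, XTH20, XTH21, XTH29 and XTH30. The 12 EXPA genes without one were EXPA2, EXPA7, EXPA8, EXPA14, EXPA15, EXPA16, EXPA17, EXPA18, EXPA20, EXPA21, EXPA22 and EXPA23. They include EXPA7 and EXPA18, the expansin genes of root hairs, EXPA2, known from germinating seeds, and EXPA17 and EXPA14, known from lateral root emergence. Runs of neighbouring members differed in whether their genes had peaks within 1000 bp. XTH1 and XTH2 lie together on chromosome 4 and had none. A run of 5 genes with an EXPA symbol lies on chromosome 5 from 15726243 to 15740605. Of these, EXPA21, EXPA22 and EXPA23 had none and EXPA24 and EXPA25 the single shared peak. EXP26, an expansin gene outside the naming rule, lies in the same stretch, from 15735794 to 15736979, and had no peak. In the run of XTH12, XTH13 and XTH25 the first pair had none, and in that of XTH24, XTH18 and XTH19 every gene had peaks. A missing peak means that the gene was not in the deposited list, and signal below the caller's threshold was not measured.

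**Figure D3:**
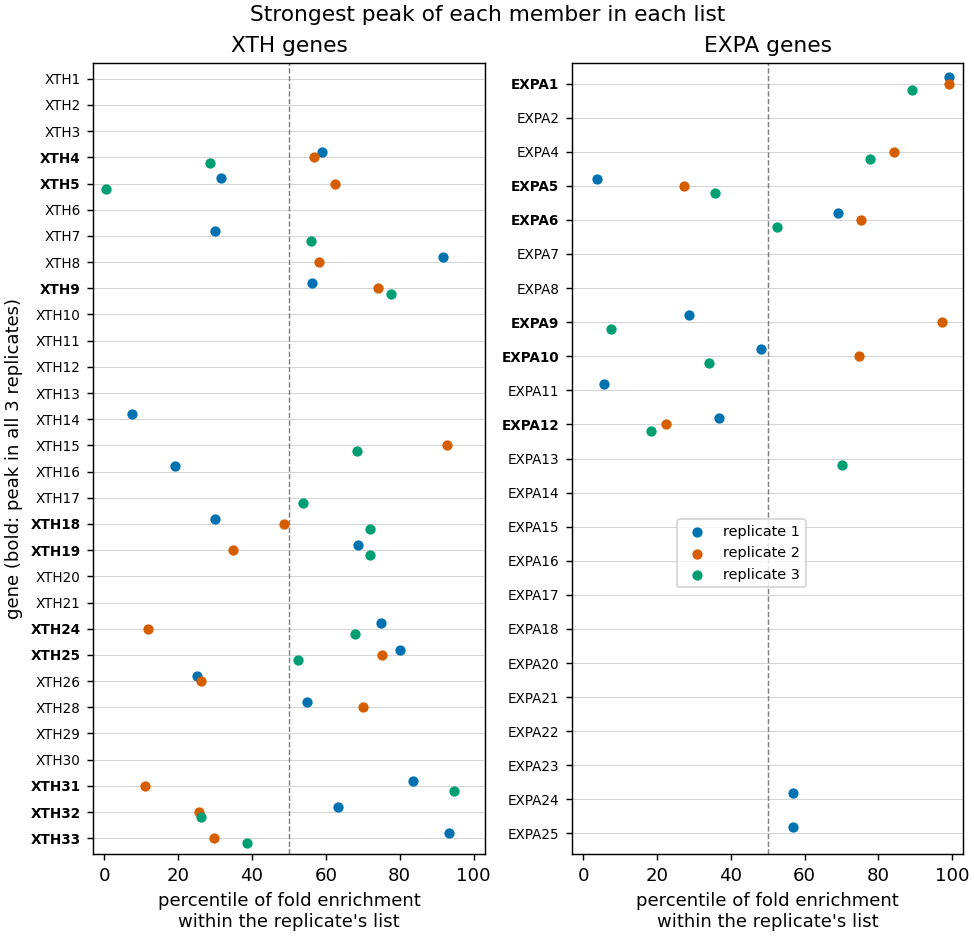
Percentile of fold enrichment of the strongest peak within each replicate's list (100 is the strongest) for all 30 XTH and 23 EXPA genes; points are replicates, rows without points had no peak, and names in bold had peaks in all 3 lists. EXPA1 lies between 89.0 and 99.1 in the 3 lists, whereas XTH31, XTH33 and EXPA9 spread widely between replicates.

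The counted genes were not at the top of the lists. Over the 3 replicates, the mean percentile of the strongest peak had a median of 52.7 in the 10 XTH genes and 48.4 in the 6 EXPA genes, against 62.4 in all 5160 genes with peaks in the 3 lists. XTH9 and XTH25 were the XTH genes with a peak at or above the list's median in every replicate, and EXPA1 and EXPA6 the EXPA genes. The range within a family was wide, from 31.5 to 69.4 in XTH and from 22.3 to 95.7 in EXPA. Peaks at XTH genes were longer than is usual for peaks at genes. Over pairs of a gene and a peak, their median length was 2359, 1770 and 2349 bp in replicates 1, 2 and 3, against 1605, 1267 and 1221 bp over all protein-coding genes. At EXPA genes it was 1688, 901 and 1029 bp, longer than over all genes in replicate 1 and shorter in replicates 2 and 3. The XTH peaks made up 0.240, 0.252 and 0.232% of the peaks of each list and held 0.349, 0.363 and 0.361% of its reads in peaks. EXPA peaks made up 0.169, 0.159 and 0.182% of peaks and held 0.150, 0.136 and 0.166% of reads. Per kb of peak length, XTH peaks held a median of 863, 675 and 582 reads in replicates 1, 2 and 3. For EXPA peaks this was 864, 699 and 564, and for the whole lists 865, 710 and 600. The larger share of reads at XTH genes thus came without more reads per kb.

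The next question was whether the replicates placed their summits at the same point. With the closest summit of each list taken, the 3 summits lay within 200 bp of each other at 4 of the 16 counted genes, namely XTH5, XTH32, EXPA1 and EXPA9. Of all 5160 genes with peaks in the 3 lists, 59.0% met this limit. The median span of the 3 summits was 460 bp at the XTH genes and 539 bp at the EXPA genes, against 149 bp at all such genes. XTH19 at 227 bp and EXPA5 at 263 bp came just outside the limit, and EXPA12 and XTH18 were widest at 3575 and 3291 bp. Most of the wall-loosening genes with peaks in all lists thus had summits that lay apart. The limit of 200 bp was set after the data had been seen.

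**Figure D4:**
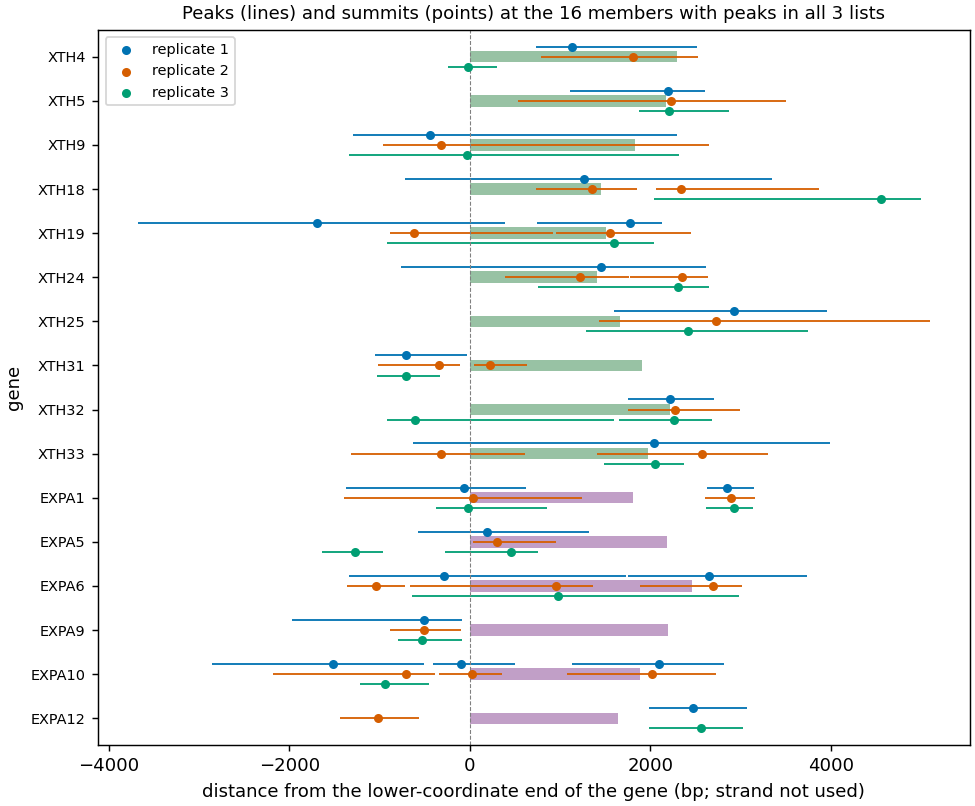
Peaks (lines) and summits (points) of the 3 replicates at the 16 genes with peaks in all lists, by distance in bp from the lower-coordinate end of the gene; shaded bars are the gene bodies. Summits of the replicates coincide at XTH5, XTH32, EXPA9 and at both sites of EXPA1, and lie apart at XTH18 and EXPA12.

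Summits lay mostly outside the genes. Over the pairs of a gene and a peak, 36 of 53 XTH summits (67.9%) lay in the 1000 bp outside a gene end and 7 (13.2%) inside the gene. For EXPA these were 18 of 36 (50.0%) and 8 (22.2%). Over all protein-coding genes, 55.7% lay in the 1000 bp outside and 23.3% inside. The remaining summits, 18.9% for XTH, 27.8% for EXPA and 21.0% for all genes, lay farther away, in peaks that only reached into the 1000 bp. Of the 16 counted genes, 12 were the nearest protein-coding gene to at least 1 summit of every replicate. The exceptions were XTH9, XTH18, XTH25 and EXPA12. Counted by the nearest gene only, 7 XTH genes (23.3%) and 5 EXPA genes (21.7%) remained, against 9.73% of all protein-coding genes. At 5 genes (XTH5, XTH9, XTH19, XTH25 and EXPA12) every peak also reached the 1000 bp around another gene, so that it cannot be assigned to the wall gene alone. How often this holds over all genes was not counted.

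The comparison of the families depended on how far from the gene peaks were counted. Within the gene body alone, 8 XTH genes (26.7%) and 3 EXPA genes (13.0%) had peaks of all 3 replicates, against 13.4% of all genes. With 2000 bp outside the gene, the counts were 12 (40.0%) and 10 (43.5%) against 24.3%, and the order of the families turned. The 4 EXPA genes added there were EXPA4, EXPA13, EXPA18 and EXPA21. With peaks at or above the list's median fold enrichment, 2 XTH genes (6.67%) and 2 EXPA genes (8.70%) remained, against 7.09% of all genes, shares near that of all genes. With a false discovery rate of at most 1% in each list, the counts were 4 XTH genes (XTH9, XTH18, XTH19 and XTH25; 13.3%) and 1 EXPA gene (EXPA1; 4.35%), against 4.78%. XTH18 and XTH19 met this limit through the same peak in each list, so 1 set of peaks was counted for both. The peaks counted for XTH25 had their summits inside TCH4.

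**Figure D5:**
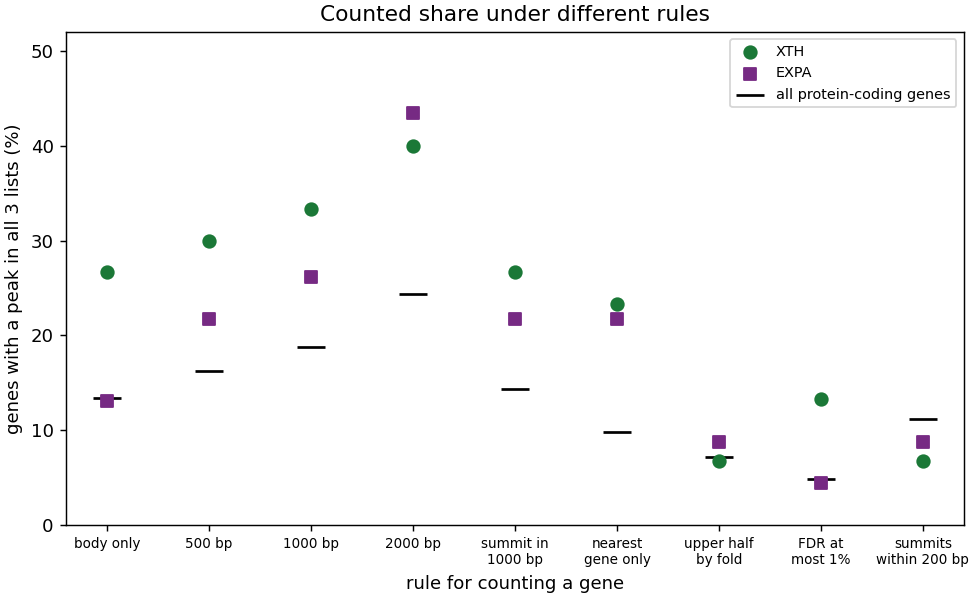
Share of XTH genes, EXPA genes and all protein-coding genes (%) counted as having a peak in all 3 lists, under different windows and rules. XTH stands above all genes for every window, EXPA meets the level of all genes in the gene body (13.0% against 13.4%), and both meet it among peaks at or above the median fold enrichment. With summits within 200 bp, XTH (6.67%) and EXPA (8.7%) lie below all genes (11.1%).

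Members of the families with another symbol were read by the same rule. EXGT-A3, also named XTH27, had 6.87, 7.74 and 5.24 (mean 6.62 ± 1.27, SD, n = 3), above every gene with an XTH symbol. Its summits lay outside the gene and on both sides of it, at 387822 for the first replicate against 383549 and 383430 for the others. EXGT-A3 occupies 385171 to 387478 on chromosome 2. Its summits of replicates 2 and 3 thus lay beyond 1000 bp, in peaks that only reached into that flank. TCH4 had 6.38, 4.48 and 3.62 (mean 4.83 ± 1.41). In these strongest peaks the summit of replicate 1, at 23309076, lay outside TCH4, and those of replicates 2 and 3 lay inside it. XTR6, also named XTH23, had a peak in replicate 2, at 3.21. EXP3, an alpha-expansin gene, had 3.71, 3.80 and 3.89 (mean 3.80 ± 0.09), and EXP26 had no peak. The near-equal values of EXP3 belong to different places. Its summits of replicates 1 and 2, at 15786007 and 15785897, lay below its lower end at 15787523. That of replicate 3, at 15788420, lay inside the gene.

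Other wall genes were counted in the same way. Of 10 beta-expansin and expansin-like genes, 3 (30.0%) had peaks in all replicates, namely EXLA1 (4.93 ± 0.80), EXPB3 (4.84 ± 0.98) and EXPB1 (3.86 ± 0.68). Of the 14 xyloglucan genes listed, 9 were found by symbol, and 4 of these (44.4%) had such peaks. They were XXT5, a xylosyltransferase gene of xyloglucan synthesis (4.26 ± 0.74), CSLC6, of the glucan synthase family (4.36 ± 1.72), and XYL1 and BGAL10, whose products trim xyloglucan side chains (4.33 ± 1.81 and 4.45 ± 0.86). These shares stand beside the 18.8% of all genes and were not tested. Of the AHA proton pump genes only AHA10 carries that symbol in the gene table, and it had no peak. AHA10 is known from the vacuolar membrane of the seed coat, so the pumps that acidify the wall were not covered.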

How the data were processed

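Alignment was by Bowtie to TAIR10, per the submitters' processing notes; which caller made the peaks, with what settings and with or without the input, is not given in the sources used here. All lists have 9 unnamed columns, identified from their values and order. Read counts per peak were deposited without normalization. The deposited score, a transformed p-value by its values, was not used further. Fold enrichment was deposited as a linear ratio, and the deposited false discovery rate is in percent (at most 4.99). A summit is the start plus the fifth column.

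Genes came from a RefSeq table (assembly TAIR10.1), which shares TAIR10 coordinates on the nuclear chromosomes. Members, lists and comparisons were chosen with earlier results of these data known. A gene was called when peaks of all 3 lists overlapped its body or 1000 bp outside either end by at least 1 bp; where a list had several, the peak with the highest fold enrichment was used. Full values are given for at most 8 called genes in each family, by mean percentile. Means and SDs run over 3 lists, which need not share a scale. No test was made, since all ChIP samples form 1 group. The code was tested on simulated peaks at known distances. Python 3.11.15, pandas 2.3.3 and scipy 1.17.1 were used.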

Additional observations from a re-analysis of the deposited data

How the results depend on the processing

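The XTH count of 10 and the EXPA count of 6 moved by more than 1.5 times under some rules. EXPA was at 10 with 2000 bp flanks, where the difference between the families (EXPA minus XTH) turned to 3.48 percentage points, and at 3 within the gene body. With peaks at or above each list's median fold enrichment, both counts were 2 and the difference was 2.03; with a false discovery rate of at most 1%, they were 4 and 1. Requiring summits within 200 bp, a rule added after seeing the data, left 2 and 2, again with a difference of 2.03. These were 6.67% of XTH and 8.7% of EXPA genes, both below the 11.1% of all genes. Leaving out 1 replicate at a time gave 11 to 13 XTH and 6 to 7 EXPA genes, with differences from -17.2 to -6.23. Without replicate 1, XTH stood at 36.7% and EXPA at 30.4%, against 21.6% of all genes. Without replicate 2 these were 36.7 and 26.1% against 21.4%. Without replicate 3 they were 43.3 and 26.1% against 26.8%, so EXPA was near all genes. With peaks in at least 2 replicates, XTH stood at 50.0% and EXPA at 30.4%, against 32.1%. The difference stayed negative with 500 bp flanks, an overlap of at least 200 bp, summits in the window, peaks in at least 2 replicates, the nearest gene only, and members added by synonym or EXP number. Of 14 genes with full values, the mean fold enrichment of 13 moved by less than 1 SD under another choice of peak; EXPA1 went from 6.34 to 4.57 when the peak with most reads or the nearest summit was taken. The upstream flank alone and promoter motifs were not run, since strand and sequence were not used here. Library depth is unknown, and a missing peak is no measure of absent signal.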
